A study of Mus musculus with 2 samples.

Results

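The genes described here are 10 BCL2 family regulators of apoptosis, measured on 2 single-colour Agilent mouse expression arrays. They are the anti-apoptotic genes Bcl2, Bcl2l1 and Mcl1, the pore-forming genes Bax and Bak1, and the BH3-only genes Bid, Bad, Bcl2l11, Bik and Bmf. Every probe whose gene name on the array design is one of these symbols was taken, which gave 10 of 19698 named genes, by 20 of 41174 probes and 47 of 43379 spots per array. Of the 20 probes, 3 were printed as 10 spots and 17 as 1 spot. The genes were chosen by family, with earlier results of these data known.

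One array was hybridised with RNA of NIH3T3, a long-established line of mouse embryo fibroblasts, carrying pcDNA3.1 with MARVELD1, and the other with RNA of NIH3T3 cells that carried the empty pcDNA3.1 vector. The plasmid gives resistance to G418, and stable lines were selected with that drug, per the labels. The species of the MARVELD1 insert, and whether a line was 1 clone or a pool, are stated nowhere in the labels or file headers used here. Because each group has 1 array, no test, p-value or replicate error between the groups exists, and all differences below describe these 2 arrays.

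Members of the family meet at the mitochondrial outer membrane. Bax and Bak form pores there that release cytochrome c, Bcl2, Bcl-xL (from Bcl2l1) and Mcl1 bind and restrain them, and BH3-only proteins act upstream by occupying the restraining proteins or by activating Bax and Bak. In fibroblasts the BH3-only protein Bim, from Bcl2l11, is known as a sensor of growth factor withdrawal, held low by survival signalling. Much of the family's control lies in protein turnover, phosphorylation and cleavage, which an RNA measurement does not read.

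The 60-base probes that carry the results are printed here as deposited, 5′ to 3′, to show which stretch of each transcript was read. Their mm9 positions are given with the values. No mm9 gene models were used here, so exon and UTR boundaries around the probes are not given. In the Bcl2l11 sequence the capitals mark adjacent glycine and aspartate codons in an open frame, the pair at the core of the BH3 motif. That pair was found in an open frame of 1 of the 20 member probes. The other sequences have no marked part.
Bcl2 A_51_P380013: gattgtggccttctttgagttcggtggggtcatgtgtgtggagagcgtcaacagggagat
Bcl2l1 A_52_P510877: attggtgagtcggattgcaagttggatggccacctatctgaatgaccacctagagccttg
Bax A_51_P254541: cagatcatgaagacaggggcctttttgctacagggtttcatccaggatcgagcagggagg
Bcl2l11 A_51_P484880: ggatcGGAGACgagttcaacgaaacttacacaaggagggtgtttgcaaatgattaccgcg
Bik A_51_P117794: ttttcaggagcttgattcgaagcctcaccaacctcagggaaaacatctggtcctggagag

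Intensities below are the processed fluorescence of a spot, or the geometric mean of 10 spots. The log2 differences and folds put the array labelled MARVELD1 over the empty vector array, once each had been divided by its 75th percentile, 703 on the array labelled MARVELD1 and 768 on the empty vector array. Over all 29535 probes measured on at least 1 array, the median difference was 0.15 on this scale, and it was 0.04 with scaling to the array median and 0.01 after loess. Differences near 0.15 are therefore those of a typical probe over all intensities. In bins of brightness, over probes measured on both arrays, the median ran from 0.01 (median intensity 546) to 0.34 (median intensity 24950). Repeated spots of a probe, pooled over 175 probes, put the SD of a single-spot log2 difference at 0.17 for probes of intensity 1000 and over, 0.41 between 100 and 1000, and 0.66 under 100. Marveld1 itself read 6293 on the array labelled MARVELD1 and 8725 on the empty vector array by its brighter probe, a log2 difference of -0.34. Its other probe gave -0.42. By these probes the gene named in the label thus did not read higher there. Whether they read the insert, whose species is not stated, was not tested. Every direction below rests on the label alone. Of 12 fibroblast markers, 12 were detected, with a median difference of -0.33 by the brightest probe. By that probe 1 (Pdgfrb, named after its value was seen) was at least 2-fold lower (all genes, 3.53%). Further measured probes gave -1.60 and -0.33 for Col1a1, -1.61 for Thy1, -1.20 for Sparc and 0.03 for Pdgfra. The further probe of Ddr2 stood at the 2-fold limit on the lower side. These genes too were named after their values were seen. Leukocyte markers were detected for 6 of 6 genes, at 52.2 to 1020 (MARVELD1) and 41.1 to 743 (empty vector), with the pan-leukocyte gene Ptprc at the low end of both ranges. By the brightest probe their differences were above 0 for 6 of 6, with a median of 0.49, though Itgam was well above background on 1 array only. The other Cd3e probe gave -0.13. The further probes of Ptprc, Adgre1 and Itgam were not well above background on either array. Endothelial markers were detected for 5 of 5, with a median of 0.31, 4 above 0 and 1 below by the brightest probe. The gene below 0 was Cdh5 (named after its value was seen), at -0.74, with its other probe at -1.74. Of 6 epithelial markers 2 were detected, by the brightest probe Krt8 at 0.08 and Krt18 at a bound of 1.23 (at least 2.35-fold higher). The other Krt8 probe gave a bound of 1.47 (at least 2.77-fold higher). Epcam and Cdh1 were not well above background on either array. Fewer cells of a type and less RNA per cell cannot be told apart in such samples, and the part of these markers in the results was not tested.

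**Figure D1:**
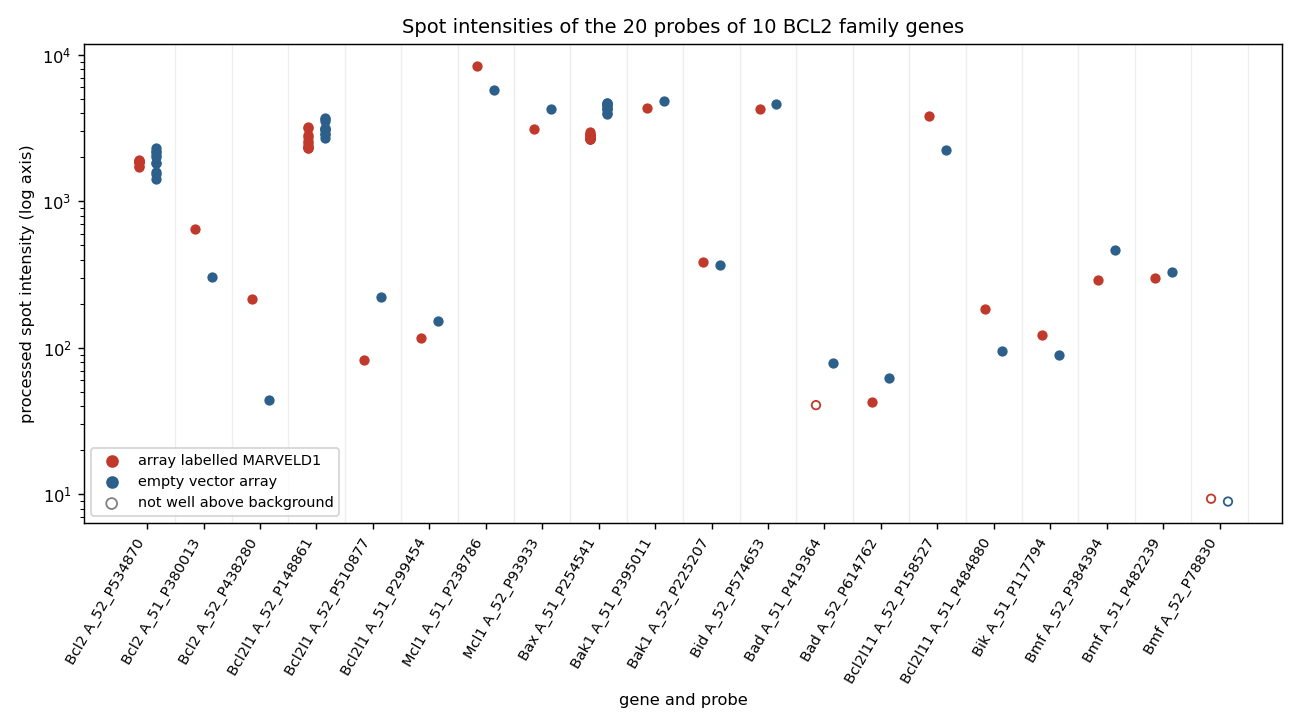
Processed intensity of every spot (log axis, arbitrary fluorescence units) of the 20 member probes, with the array labelled MARVELD1 left of the empty vector array. The 10 spots of the Bax probe, before scaling, do not overlap between the arrays, and how many other repeated probes separate so was not counted. The Bmf probe A_52_P78830 was not well above background on either.

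Across the family, differences ran in both directions and most were small. Of the 19 probes measured on at least 1 array, 9 were above 0 and 10 below, with a median of -0.01 against 0.15 over all probes. At least 2-fold higher were 3 probes (all probes, 5.88%), 2 of them in Bcl2 and 1 in Bcl2l11. The Bcl2l11 probe was under 2-fold in all 5 other settings, which left 2 probes, both in Bcl2. At least 2-fold lower was 1 probe, in Bcl2l1 (all probes, 4.62%). All 4 of these probes read below 1000 on both arrays. Among all probes of intensity under 100, 9.73% were at least 2-fold higher and 5.4% lower. The shares were 5.63% higher and 5.61% lower between 100 and 1000, and 2.98% and 2.47% at 1000 and over. The balance over all probes, 1737 higher and 1365 lower, turned to 1319 higher and 1694 lower when arrays were scaled to their medians, and to 1239 and 1756 after loess. Over all genes 891 were higher and 584 lower, against 653 and 723 on the median scaling. With each gene represented by its brightest probe, 0 of 10 genes passed 2-fold in either direction, beside 5.39% higher and 3.53% lower over all 16532 genes. The 8 anti-apoptotic probes had a median of -0.02 and the 11 measured pro-apoptotic probes of -0.01.

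**Figure D2:**
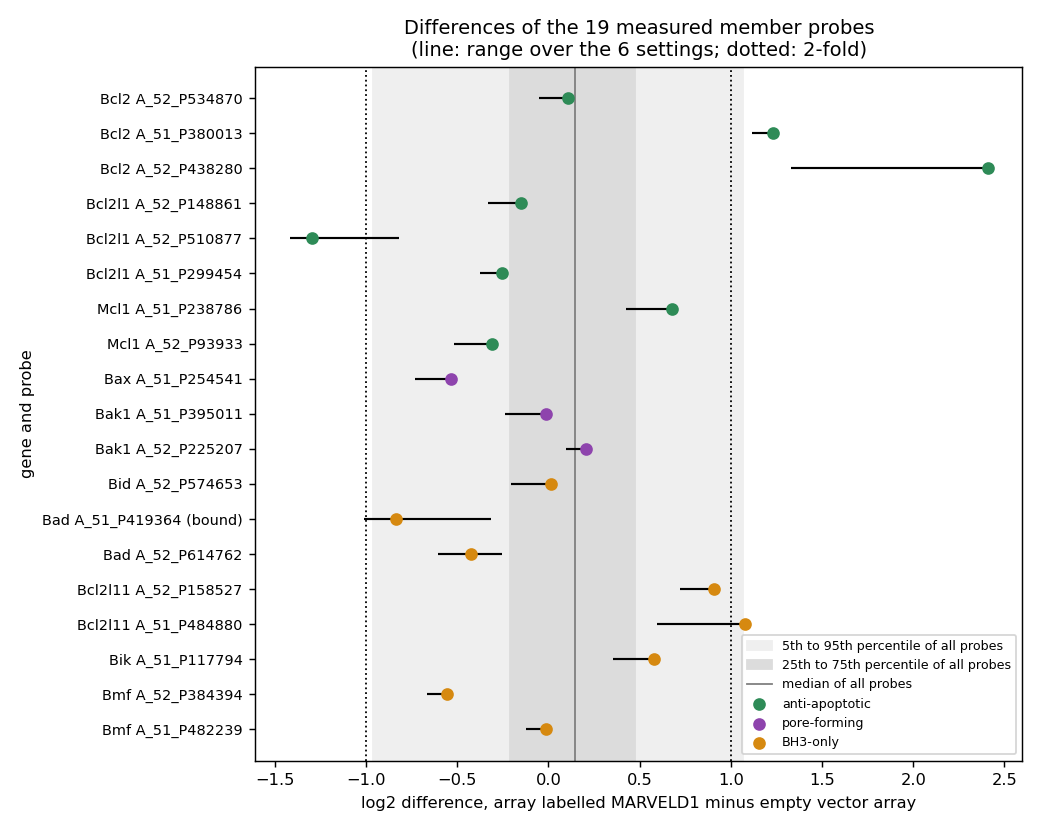
Log2 difference (array labelled MARVELD1 minus empty vector array) of each of the 19 measured probes, as points, with a line for the range over 6 ways of scaling and background correction and bands for all probes. Both upstream Bcl2 probes lie right of the 2-fold line, Bcl2l1 A_52_P510877 left of it, and most others within the band between the 5th and 95th percentiles of all probes.

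Among the anti-apoptotic genes, Bcl2, the founding member of the family, gave unlike values along its length. Its most 3-prime probe, A_52_P534870 (accession of transcript variant 1, chr1:108434793-108434852, minus strand), read 1718 at the lowest, 1862 at the median and 1927 at the highest over 9 usable spots on the array labelled MARVELD1, and 1425, 1913 and 2308 over 10 spots on the empty vector array. The spots of the array labelled MARVELD1 lay inside the range of the others, and the log2 difference was 0.11 with a standard error over spots of 0.079, which covers spot noise only. This value was below 0 in 3 of 5 other settings, down to -0.05.

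Probe A_51_P380013 of Bcl2, whose sequence is printed above (accession of transcript variant 2, chr1:108608970-108609029), read 651 on the array labelled MARVELD1 and 303 on the empty vector array. That was 2.35-fold higher, a log2 difference of 1.23 against a single-spot SD of 0.41, with a range of 1.12 to 1.23 over the 6 settings. A further probe designed on a RIKEN clone, A_52_P438280 (chr1:108607310-108607369), read 215 on the array labelled MARVELD1 and 44.3 on the empty vector array. It was 5.31-fold higher (log2 difference 2.41), but 1.33 with normexp background correction, and its reading on the empty vector array lay near the lowest well-measured intensity of 36.5 there. Both upstream probes were thus higher on the array labelled MARVELD1 while the bright 3-prime probe was not, and which transcripts they share is not settled by the accessions.

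The upstream probes of Bcl2 lie 174177 and 172517 bases from the 3-prime one in the genome, on the same strand. Over 4657 genes with probes at least 500 bases apart on 1 strand, subtracting the 3-prime end's difference from the 5-prime end's gave a median of -0.28 and an interquartile range of -0.69 to 0.14. For Bcl2 it was 1.12 with A_51_P380013, its most 5-prime probe, a value that 3.46% of those genes reached. With A_52_P438280 it was 2.30, reached by 0.580%. That probe is not the most 5-prime of Bcl2, whereas each of those genes entered by its most 5-prime probe, so the 0.580% sets unlike pairs side by side. On these arrays 32.4% of those genes were above 0 by this measure, Bcl2 among them. The part of probe position in the Bcl2 values was not tested.

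Bcl2l1, which encodes the survival protein Bcl-xL, was lower by all 3 of its probes, but by unequal amounts. The bright 3-prime probe A_52_P148861 (chr2:152606631-152606690, minus strand) read 2299 at the lowest, 2541 at the median and 3212 at the highest over 10 spots on the array labelled MARVELD1, and 2689, 3108 and 3730.4 on the empty vector array. The spot ranges overlap, and the log2 difference was -0.15 with a standard error over spots of 0.075.

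Of the upstream Bcl2l1 probes, A_52_P510877 (chr2:152655185-152655244) read 83.2 on the array labelled MARVELD1 and 223 on the empty vector array, 2.45-fold lower. This log2 difference of -1.30 became -0.82, under 2-fold, with normexp background correction. Probe A_51_P299454 (chr2:152655730-152655789), further upstream, read 117 on the array labelled MARVELD1 and 152 on the empty vector array, a log2 difference of -0.25, less than the single-spot SD of 0.41 at that brightness. So the larger difference was not shared by its nearest neighbour. Against the 3-prime probe, the difference of A_52_P510877 was -1.15, and 9.47% of the 4657 genes were at least as low. As A_52_P510877 is not the most 5-prime probe of Bcl2l1, the 9.47% sets unlike pairs side by side. With A_51_P299454, the most 5-prime one, the value was -0.10, and 61.8% of those genes were at least as low.

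Mcl1, a short-lived survival protein that restrains Bak in particular, had 2 bright probes that disagreed in direction. A_51_P238786 (chr3:95466855-95466914, plus strand) read 8417 on the array labelled MARVELD1 and 5745 on the empty vector array, a log2 difference of 0.68 (1.60-fold higher). A_52_P93933 (chr3:95465543-95465602), which lies 1312 bases upstream, read 3125 on the array labelled MARVELD1 and 4234 on the empty vector array, a log2 difference of -0.31 (1.24-fold lower).

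Each of the Mcl1 values exceeds the single-spot SD of 0.17 at that brightness, and the directions held in all 6 settings (0.42 to 0.68, and -0.52 to -0.31). The gap of 0.99 between them was met or passed by 17.9% of the 4412 genes with 2 measured probes, whose median gap was 0.43. No direction can be given for Mcl1 as a gene.

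**Figure D3:**
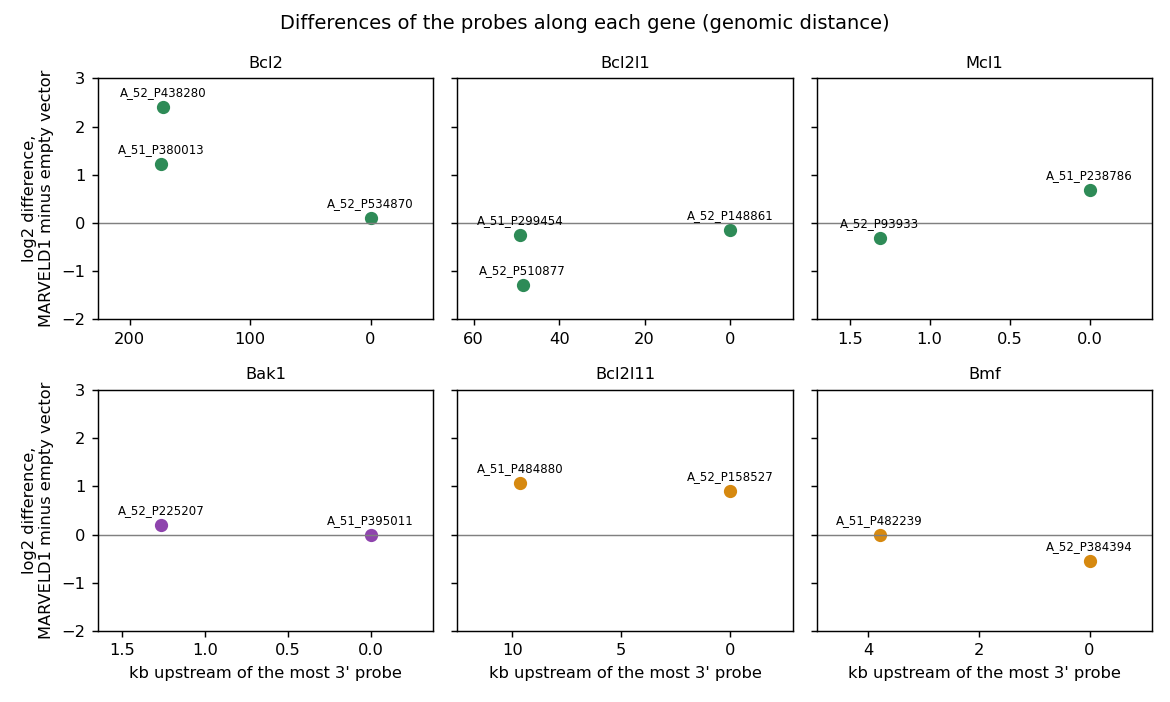
Log2 difference of each probe (vertical axis) against its genomic distance in kb upstream of the gene's most 3-prime probe (horizontal axis, 3-prime end at the right), for the 6 genes with several measured probes on 1 strand. Bcl2 is higher upstream, Mcl1 and 1 of the upstream Bcl2l1 probes are lower, and both Bcl2l11 probes sit near 1.

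Among the pore-forming genes, Bax was lower on the array labelled MARVELD1 by the most precisely measured value of the family. Its probe A_51_P254541 (chr7:52721469-52721624, minus strand) spans 156 bases in the genome for 60 bases of sequence, so it crosses a splice junction. Its 10 spots read 2660.2 at the lowest, 2751 at the median and 2975 at the highest on the array labelled MARVELD1, and 3928, 4429 and 4709.9 on the empty vector array. These ranges, which are of intensities before scaling, do not overlap. How many other probes with repeated spots separate in this way was not counted. The log2 difference after scaling was -0.53 with a standard error over spots of 0.034 (1.45-fold lower).

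The Bax value ranged from -0.73 to -0.53 over the 6 settings, and in the authors' deposited table the probe stood at 22.5 for MARVELD1 and 35.3 for the empty vector, 1.57-fold lower. Among all probes measured on both arrays, 11.5% were at least as low. The spots come from 1 RNA sample per group, and how Bax varies between cultures was not measured.

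Bak1, the partner of Bax in pore formation, differed little between the arrays. Its brighter probe A_51_P395011 (chr17:27156967-27157026, minus strand) read 4358 on the array labelled MARVELD1 and 4811 on the empty vector array, a log2 difference of -0.02. Its other probe A_52_P225207 (chr17:27158232-27158291) read 387 on the array labelled MARVELD1 and 366 on the empty vector array, a difference of 0.21. Both lie within the single-spot SD of 0. Among probes nearest in brightness to the brighter one (median intensity 4918), the median was 0.27, above its value. The difference of Bax minus that of Bak1, which a common scaling factor cannot change, was -0.52, with a range of -0.52 to -0.48 over the settings.

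Among the BH3-only genes, Bcl2l11 was higher by both probes to nearly the same extent. Its bright probe A_52_P158527 (chr2:127988051-127988110, plus strand) read 3833 on the array labelled MARVELD1 and 2234 on the empty vector array, a log2 difference of 0.91 (1.87-fold higher). The probe with the BH3 codons, A_51_P484880, read 185 on the array labelled MARVELD1 and 95.5 on the empty vector array, a difference of 1.08 (2.11-fold higher). This probe runs from 127972893 to 127983988 on chromosome 2 and so crosses an intron.

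The bright Bcl2l11 probe stayed between 0.72 and 0.91 over the 6 settings, and the dimmer one between 0.60 and 1.08. The dimmer probe passed 2-fold only with scaling to the 75th percentile, and stood at 0.95 to 0.98 in 4 of the other settings and at 0.60 with normexp. The authors' deposited table gave the bright probe 31.1 for MARVELD1 and 17.9 for the empty vector, 1.73-fold higher. Among all probes measured on both arrays 6.10% were at least as high as the bright probe and 3.69% as the dimmer one. The gap between the probes, 0.17, was smaller than the median gap of 0.43 for genes with 2 measured probes.

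Set against each other, Bcl2l11 and Bax differed in direction under every setting run. The difference of the bright Bcl2l11 probe minus that of the Bax probe was 1.44, between 1.43 and 1.46 over the 6 settings. Against the 3-prime probe of Bcl2l1 it was 1.05 and against that of Bcl2 0.80. The upstream Bcl2 probes, at 1.23 and 2.41, were above the bright Bcl2l11 probe at 0.91, so the direction of the Bcl2 gap depends on the probe. These gaps compare differences between arrays, not levels of one gene with another, which probe intensities do not allow.

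Bid, which caspase 8 cleaves to an active form and so links death receptors to mitochondria, differed little between the arrays. Its probe A_52_P574653 (chr6:120843464-120843523, minus strand) read 4241 on the array labelled MARVELD1 and 4585 on the empty vector array, a log2 difference of 0.01. The sign turned in all 5 other settings, down to -0.21, scaling to the array median included. Among probes nearest in brightness (median intensity 4918), the median was 0.27, above the Bid value.

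Bad, which growth factor signalling inactivates by phosphorylation, was dim. Probe A_51_P419364 (chr19:7016618-7016677, plus strand) read 40.6 on the array labelled MARVELD1, where it was not well above background, and 79.2 on the empty vector array. It was therefore at least 1.79-fold lower, a log2 bound of -0.84, which was -0.32 with normexp. The other probe, A_52_P614762, read 42.4 on the array labelled MARVELD1 and 62.2 on the empty vector array, a difference of -0.43. It was designed on a RIKEN clone and lies on the opposite strand (chr19:7025594-7025653, minus), so it is uncertain that it reads Bad. The bound of the first probe exceeds the SD of 0.66 for single spots this dim, and the value of the other does not.

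Bik, a BH3-only protein of the endoplasmic reticulum, was faint as well. Its probe A_51_P117794 (chr15:83374048-83374107, plus strand) read 122 on the array labelled MARVELD1 and 89.4 on the empty vector array, a log2 difference of 0.58 against a single-spot SD of 0.41.

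Bmf, a BH3-only protein known to bind dynein light chain and to respond to loss of cell anchorage, had 2 measured probes of 3. Probe A_51_P482239 (chr2:118358312-118358371, minus strand) read 299.6 on the array labelled MARVELD1 and 330.1 on the empty vector array, a log2 difference of -0.01. Probe A_52_P384394 (chr2:118354519-118354578) read 291 on the array labelled MARVELD1 and 467 on the empty vector array, a difference of -0.55 (1.47-fold lower). The remaining probe, A_52_P78830 (chr2:118356977-118357036), was not well above background on any array, at 9.33 on the array labelled MARVELD1 and 8.93 on the empty vector array. The 2 measured probes differ by 0.54, and the larger value is above its single-spot SD of 0.41.

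**Figure D4:**
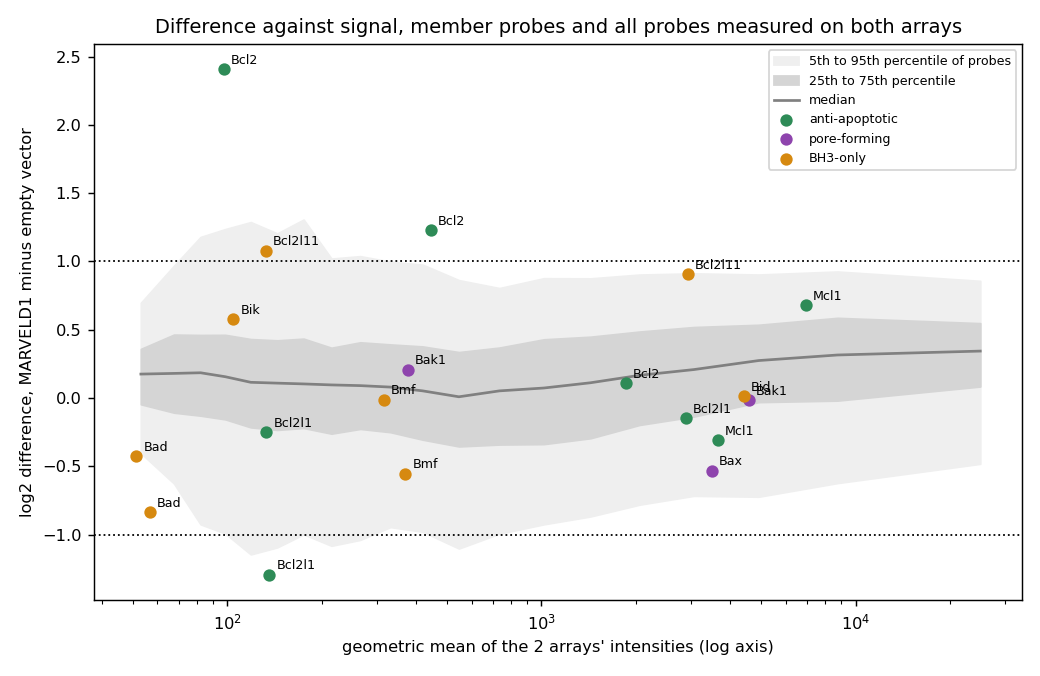
Log2 difference (vertical axis) against the geometric mean intensity of the arrays (horizontal, log axis) for the 19 measured member probes, over bands for all probes well above background on both arrays. Both upstream Bcl2 probes, Bcl2l1 A_52_P510877 and Bad A_51_P419364 (a bound) lie beyond the outer band at their brightness. The bright Bcl2l11 probe lies at its upper edge and the dimmer one within it. Bad A_52_P614762 lies left of the bands, which start at a median intensity of 53.1.

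Beyond the 10 genes, 13 of 16 other BCL2 family members had a named probe and 10 were detected, with a median difference of 0.12 against 0.19 over all genes. Of the 10 detected, 0 were at least 2-fold higher (all genes, 5.39%) and 1 lower (all genes, 3.53%). Pmaip1, which encodes the Mcl1-binding BH3-only protein Noxa, read 48.5 on the array labelled MARVELD1 and 757 on the empty vector array by its only probe, a log2 difference of -3.84 (14.3-fold lower). Bnip3, a mitochondrial protein with a BH3-like region, was the highest of the list at 5106 on the array labelled MARVELD1 and 2831 on the empty vector array (log2 difference 0.98).

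Downstream of the pores, cytochrome c itself was higher by all 3 probes of its gene, Cycs. Its brightest probe read 41208 on the array labelled MARVELD1 and 25376 on the empty vector array (log2 difference 0.83), and the others gave 1.14 and 0.91. Of the 7 genes of the apoptosome and the released mitochondrial proteins, 0 passed 2-fold in either direction by the brightest probe, with a median of 0.26 and Endog, a released nuclease, lowest at -0.26. Among caspases and their substrates, 0 of 13 detected genes were at least 2-fold higher (all genes, 5.39%) and 3 lower (all genes, 3.53%). The inflammatory caspases Casp4 and Casp12 gave -1.51 and -1.10, while Casp8, the initiator that cleaves Bid, was the highest at 0.98.

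Regulators and receptors differed little as lists. Of 41 partners and regulators of BCL2 family proteins, 0 were at least 2-fold higher (all genes, 5.39%) or lower (all genes, 3.53%) by the brightest probe. Their median was 0.26. Mapk8, which encodes the kinase JNK1, was highest at 0.98, though its other measured probe gave -0.02. Ywhaz, the 14-3-3 zeta gene whose product holds phosphorylated Bad, was lowest at -0.89, with other probes at -2.63 and a bound of 0.62.

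Among 8 inhibitor of apoptosis genes 1 was higher past 2-fold, Naip1, at least 2.03-fold from readings of 67.8 on the array labelled MARVELD1 and 25.9 on the empty vector array, and Birc2 was lowest at -0.17, its other probe giving 0.37. Among 17 detected death receptor and adaptor genes 1 was higher, Tnfrsf21 (death receptor 6), at a log2 difference of 1.15 with its other probes at 0.87 and a bound of 0.80, and Tnfrsf1b was lowest at -0.69. Over the 6 lists, 2 of 96 detected genes were at least 2-fold higher and 4 lower, beside 5.39% and 3.53% of all genes.

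**Figure D5:**
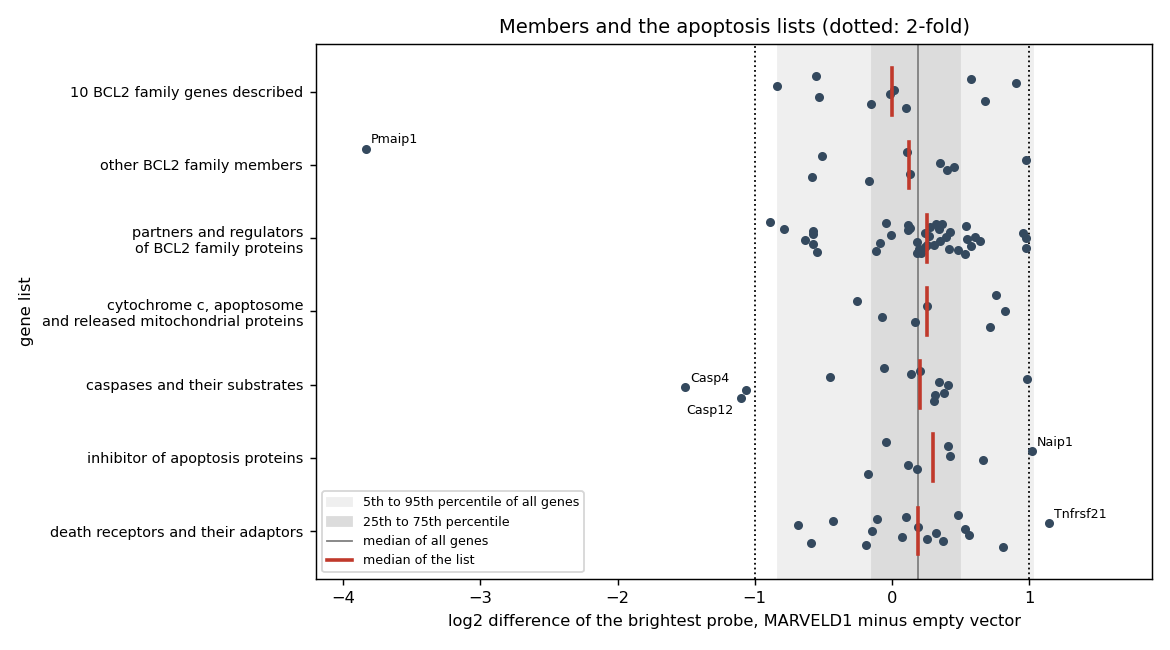
Log2 difference of the brightest probe of each detected gene (horizontal axis), for the 10 members and the 6 apoptosis lists, with list medians and bands for all genes. Among the points past 2-fold, those named are Pmaip1, Casp4 and Casp12, which are lower, and Naip1 and Tnfrsf21, which are higher.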

How the data were processed

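The authors deposited 1 Agilent Feature Extraction file per array, with processed intensity per spot, background-subtracted and detrended within the array by version 9.5.3.1 per the file headers, and a table of normalized intensity for 26851 probes. Values of that table are the processed intensity divided by a factor (median 123.3 for MARVELD1 and 124.6 for the empty vector). Its column medians are 2.94 and 3.11. How the factor was set is not given in the sources used here.

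Control and outlier spots (223 on the array labelled MARVELD1, 116 on the empty vector array) were excluded, and saturation was flagged for 0 spots. The log2 of the processed intensity minus that of the 75th percentile was averaged per probe. A probe counted as measured when most of its spots were flagged well above background. With 1 array measured, a bound was taken against the higher of the dim reading and the lowest well-measured intensity (36.0 on the array labelled MARVELD1, 36.5 on the empty vector array). For lists, probes were named through RefSeq (assembly GRCm38.p6, names only): 24844 by accession, 6045 by symbol, 1810 by an older name, 8475 not at all. A gene was represented by its brightest measured probe. Coordinates are mm9, per the file headers.

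Named list genes are those past 2-fold and the highest and lowest of each list, with exceptions said to be chosen by value. Of these, 1 gene is counted in its list but not reported here. Members and lists were chosen with earlier results of these data known. Functions were tested on simulated data. Alternatives used limma 3.58.1 in R 4.3.3, with Python 3.11.15 for the rest.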

Additional observations from a re-analysis of the deposited data

How the results depend on the processing

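No paired analysis was possible because each group has 1 array. Of 94 values of member probes under the 5 other scalings and background corrections, 90 moved by less than the technical SD of 0.39 between single spots and 4 by more, all with normexp: Bcl2 A_52_P438280 (1.33), Bcl2l1 A_52_P510877 (-0.82), Bad A_51_P419364 (-0.32) and Bcl2l11 A_51_P484880 (0.60). The sign differed from the reported one for 2 probes, Bcl2 A_52_P534870 and Bid A_52_P574653, both near 0. With the mean of all probes, Bcl2 stood at 1.25, Bcl2l1 at -0.57 and Mcl1 at 0.18. Member probes at least 2-fold higher, 3 as reported, were 2 under each of those 5 settings, where Bcl2l11 A_51_P484880 was under 2-fold, 5 at a limit of 1.5-fold and 1 at 3-fold. Those lower, 1 as reported, were 2 with quantile normalization, after loess and at 1.5-fold, and 0 with normexp and at 3-fold. Over all probes, the 1737 higher became 574 with normexp, 891 in the authors' table, 2957 without the filter on dim probes, 5479 at 1.5-fold and 433 at 3-fold. The 1365 lower became 813 with normexp, 3300 at 1.5-fold and 484 at 3-fold. Of the 6 pathway lists, the 2 genes higher became 1 with scaling to the median, quantile normalization, loess, the authors' table, the filter on both arrays and the mean of all probes, 0 with normexp and at 3-fold, and 14 at 1.5-fold. The 4 lower became 10 at 1.5-fold and 1 at 3-fold. Over all genes, the 891 higher became 307 with normexp, 479 in the authors' table, 3210 at 1.5-fold and 200 at 3-fold, and the 584 lower became 1482 and 216 at these limits. Beyond the changed limits and filters themselves, the cause was not tested. Signal over background limits the dim probes most, and 1 array per group limits every value.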

Other observations

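Values of a few regulators were looked at after they had been seen, outside the rule for named genes. Trp53, which encodes p53, a stress-responsive transcription factor, read 1415 on the array labelled MARVELD1 and 2658 on the empty vector array by a probe printed 10 times, a log2 difference of -0.78, and its other probe gave -0.51. Fas, the death receptor upstream of Bid cleavage, read 749 on the array labelled MARVELD1 and 1229 on the empty vector array by a probe with 10 spots (-0.59), while its dim probe gave 0.02. Foxo3, a transcription factor known to act on Bcl2l11, gave 0.18 from readings of 111 on the array labelled MARVELD1 and 107 on the empty vector array. Dynll1 and Dynll2, the dynein light chain genes whose products bind Bim and Bmf, gave 0.26 and 0.30 by their brightest probes. Their dimmer probes gave 0.93 for Dynll1, and 0.28 and -0.68 for Dynll2. Bnip3l, related to Bnip3, was lower by both probes (-0.51 and -0.38), where Bnip3 was higher by its only probe.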
